A study of Mus musculus with 6 samples.

Results

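IL-1, IL-6 and CSF1 receptor signalling was followed in the gastrocnemius (GAS) muscles of Kvβ2 KO and WT mice through 10 genes. These were the cytokine *Il6* with its receptor chains *Il6ra* and *Il6st* and its downstream genes *Stat3* and *Socs3*, the receptor *Csf1r* with its ligands *Csf1* and *Il34*, the IL-1 receptor *Il1r1* and the TNF receptor *Tnfrsf1a*. They were taken by symbol, and each symbol occurred once among the 37979 genes of the deposited table.

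IL-6 binds the receptor chain encoded by *Il6ra*, and the complex then recruits gp130, the shared signal chain encoded by *Il6st*. Janus kinases bound to gp130 phosphorylate STAT3, which enters the nucleus and turns on target genes, among them *Socs3*, whose product binds gp130 and damps the signal. CSF1 and IL-34 are unrelated in sequence but bind the same receptor tyrosine kinase, CSF1R, on which most tissue macrophages depend. The IL-1 receptor and TNF receptor 1 lead to NF-kB through their own adaptor proteins. In muscle these pathways are known from exercise, where contracting fibers release IL-6, and from repair and wasting, in which macrophages, fibroblasts and satellite cells respond to the same cytokines.

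The groups were 3 untreated WT mice and 3 untreated Kvβ2 KO mice, with 1 mRNA library per mouse and the replicate numbers 1, 7 and 8 in each group. The mice were males, 20 weeks of age by the study's description, bred from parents that carried 1 null allele of Kvβ2, and the KO mice lacked the gene in every tissue. The values are FPKM, fragments scaled to transcript length and to the size of the library, so levels of different genes can be set side by side. Sets of 3 values are given in the order of replicates 1, 7 and 8, and the smallest exact permutation p that 3 mice against 3 allow is 0.1.

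*Kcnab2*, which encodes Kvβ2, was at 0.1 to 0.233 FPKM in the WT libraries and at a listed 0, 0.0151 FPKM and a listed 0 in the KO libraries. By the steps between low FPKM values, the WT libraries held about 20300000 to 21000000 fragments and the KO libraries about 14900000 to 19400000, so depth moved with genotype, and its part in the results was not tested. The muscle fiber markers summed to 53658 to 75155 FPKM in WT and 67820 to 79996 FPKM in KO libraries, led by *Myl1* and *Tnnc2*, which encode a fast myosin light chain and fast troponin C. The log2 fold change rose with GC content across tested genes (Spearman's rho = 0.70, a description, since genes are not independent replicates). In a correction for it, each library's deviations from the gene means over the 6 libraries were fitted against GC content. This acts on differences between libraries and leaves the mean level of each gene over the 6 libraries nearly as it was. Values after the correction stand beside most fold changes.

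The upstream sequence of 4 of the genes is shown because it holds the letters that the end points of these pathways are known to bind. STAT3 binds TTCNNNGAA, which reads the same on both strands, and NF-kB binds the kB motif, which was searched on both strands. Promoters came from RefSeq on GRCm38.p6, in which 8 of the 10 genes were matched, and the window was the 250 bases before the transcript start that RefSeq gives. For *Socs3* and *Tnfrsf1a* that start lies inside the outer bounds that GENCODE gives the gene, and the window lies inside them too. Capitals mark the STAT motif in *Socs3* and *Tnfrsf1a*.
Socs3, chr11:117969367-117969616, minus strand: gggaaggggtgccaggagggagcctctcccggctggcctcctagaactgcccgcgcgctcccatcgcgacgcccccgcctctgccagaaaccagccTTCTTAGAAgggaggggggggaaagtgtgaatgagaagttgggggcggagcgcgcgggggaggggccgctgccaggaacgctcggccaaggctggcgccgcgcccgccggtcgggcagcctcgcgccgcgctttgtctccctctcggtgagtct
Tnfrsf1a, chr6:125349473-125349722, plus strand: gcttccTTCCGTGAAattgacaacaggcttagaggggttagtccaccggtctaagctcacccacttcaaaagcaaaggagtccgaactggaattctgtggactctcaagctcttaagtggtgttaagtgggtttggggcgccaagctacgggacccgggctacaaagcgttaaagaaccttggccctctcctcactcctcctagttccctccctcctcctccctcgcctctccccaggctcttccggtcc

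In the next pair, capitals mark the kB motif, which lies close to the start of *Il6* and farther upstream in *Csf1*.
Il6, chr5:30012864-30013113, plus strand: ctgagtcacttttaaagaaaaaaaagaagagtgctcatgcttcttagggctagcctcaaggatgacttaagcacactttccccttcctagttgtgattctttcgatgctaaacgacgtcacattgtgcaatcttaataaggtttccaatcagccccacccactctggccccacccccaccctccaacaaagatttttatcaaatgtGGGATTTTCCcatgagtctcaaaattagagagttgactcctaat
Csf1, chr3:107760470-107760719, minus strand: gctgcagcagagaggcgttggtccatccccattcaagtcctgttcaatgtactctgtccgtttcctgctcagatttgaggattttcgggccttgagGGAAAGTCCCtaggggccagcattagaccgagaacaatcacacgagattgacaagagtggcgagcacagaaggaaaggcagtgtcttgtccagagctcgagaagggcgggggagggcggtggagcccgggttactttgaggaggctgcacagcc

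The STAT motif starts 154 bases before the RefSeq start of *Socs3* and 244 bases before that of *Tnfrsf1a*, and 7.02% of all 32851 promoter windows hold it. The kB motif starts 44 bases before *Il6* and 154 bases before *Csf1*, occurs also in 1 of the windows of *Il1r1*, and is held by 3.9% of windows. None of the 8 genes held both motifs. A match is a description of letters and not a measured binding site. Over all tested genes with a promoter window, the 586 with the STAT motif had a median log2 fold change of 0.028 and the 444 with the kB motif one of 0.11, against 0.023 for all 8245. These medians are given without the correction for GC content, and its part in them was not tested.

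Of the 10 genes, 9 passed the filter on low genes (0.5 FPKM on average across the 6 libraries), and *Il6* did not. At an adjusted p under 0.05 (limma on log2(FPKM + 0.1), Benjamini-Hochberg over all 12334 tested genes), 0 of the 9 were called, where 0.324% of all tested genes were, 0.251% as higher and 0.073% as lower. At an unadjusted p under 0.05, *Il34*, *Tnfrsf1a* and *Il6ra* were higher in the KO mice (3 of 9, against 15.3% of all tested genes) and *Il1r1* was lower (1 of 9, against 10.9%). The 3 KO libraries lay above the 3 WT libraries for those same 3 higher genes, where 18.3% of tested genes had KO above WT, and lay below them for 0 of 9, where 16.2% of tested genes did. By sign alone, 7 of the 9 were above 0, as were 51% of all tested genes. The median log2 fold change of the 9 was 0.46, against 0.01 for all tested genes. After the correction for GC content the medians were 0.23 and 0.0012, and 0 of the 9 were called, where 0.117% of the 11985 genes then tested were. From these same libraries the study had already reported *Il6ra* and *Il34* as increased and *Il1r1* as decreased. The counts and medians of the 9 are therefore no independent test of these genes.

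**Figure D1:**
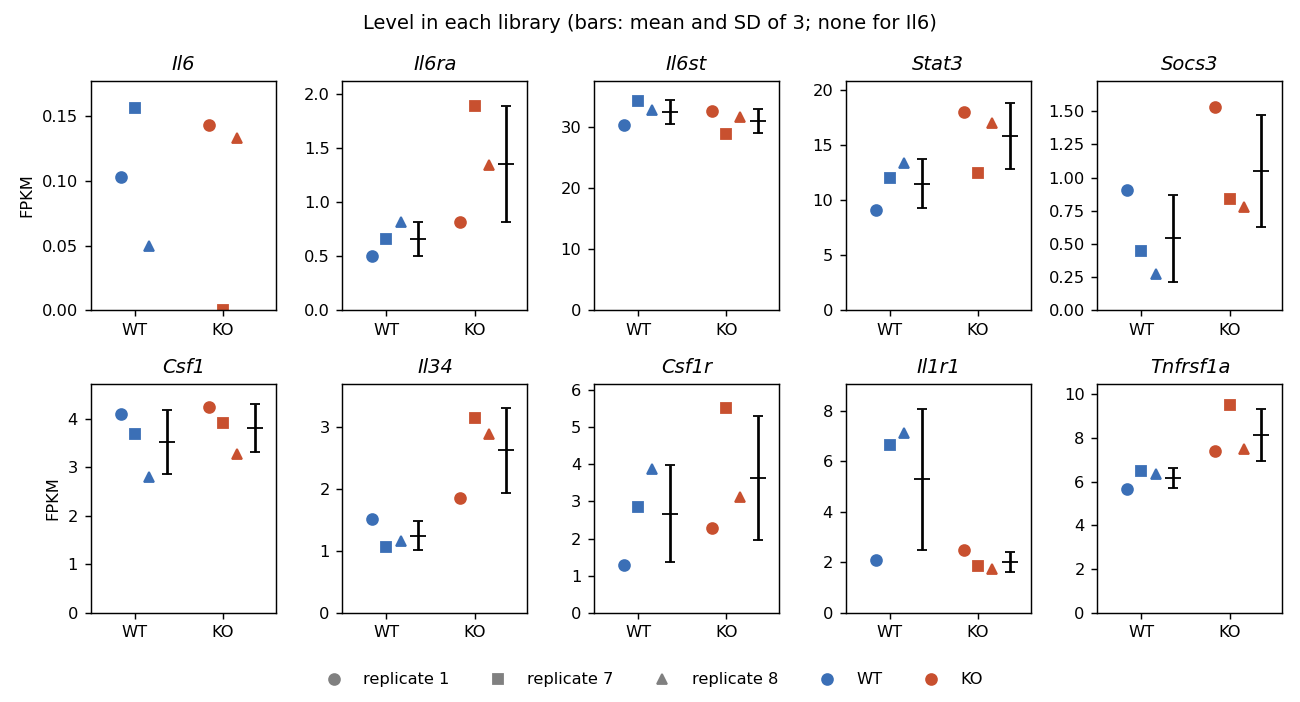
FPKM of each of the 10 genes in the 3 WT (blue) and 3 KO (red) libraries, with the mean and SD of each group as black bars except for *Il6*. *Il34*, *Il6ra* and *Tnfrsf1a* do not overlap between the genotypes, *Il6ra* only by 0.818 FPKM in KO replicate 1 against 0.815 FPKM in WT replicate 8. *Il1r1* is at 6.65 and 7.14 FPKM in WT replicates 7 and 8 alone, and *Il6st* lies between 28.7 and 34.2 FPKM throughout.

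*Il6* (ENSMUSG00000025746, chromosome 5, 30013114 to 30019981 on the plus strand of GRCm38) was close to the limit of detection. The WT libraries read 0.103, 0.156 and 0.0495 FPKM. The KO libraries read 0.143 FPKM in replicate 1 and 0.133 FPKM in replicate 8, with a listed 0 in replicate 7. Each value rested on at most about 8 fragments, and the ranges of the genotypes overlapped (exact permutation test, two-sided, p = 0.8). A fall of *Il6*, or a rise that was not large, could not be told from counting error at this depth.

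*Il6ra* (ENSMUSG00000027947, chromosome 3, 89864059 to 89913196, minus strand), the chain that binds IL-6, had a mean 2.06 times as high in KO as in WT muscle. It read 0.501, 0.656 and 0.815 FPKM in WT against 0.818, 1.89 and 1.34 FPKM in KO libraries. KO replicate 1 lay next to the highest WT library, so the lack of overlap rested on 0.818 against 0.815 FPKM. KO replicates 7 and 8 lay farther above the WT range. Its log2 fold change was 0.89 (standard error 0.34, limma, adjusted p = 0.159). It was 0.83 after the correction for GC content, where *Il6ra* alone among the 9 genes had an unadjusted p under 0.05 (unadjusted p = 0.0399, adjusted p = 0.419), while 11.2% of all genes did.

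*Il6st* (ENSMUSG00000021756, chromosome 13, 112464070 to 112510086, plus strand), the gp130 chain shared by the receptors of the IL-6 family, had the highest level of the 10 genes and, on the log2 scale, the smallest range between libraries. It read 30.3, 34.2 and 32.8 FPKM in WT against 32.5, 28.7 and 31.6 FPKM in KO libraries. The genotypes overlapped, with means of 32.4 ± 1.98 FPKM in WT muscle and 31.0 ± 1.98 FPKM in KO muscle (SD, n = 3 each). Its log2 fold change was -0.07 with a standard error of 0.10 (adjusted p = 0.708), and 0.0067 after the correction for GC content.

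*Stat3* (ENSMUSG00000004040, chromosome 11, 100885098 to 100939540, minus strand), the transcription factor downstream of gp130, read 9.07, 12.1 and 13.4 FPKM in WT against 18.05, 12.4 and 17.0 FPKM in KO libraries. KO replicates 1 and 8 lay above every WT library, and KO replicate 7 lay within the WT range. On the log2 scale the difference was 0.46 (standard error 0.20, adjusted p = 0.192), 0.32 after the correction for GC content and 0.30 without WT replicate 1.

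*Socs3* (ENSMUSG00000053113, chromosome 11, 117966079 to 117970047, minus strand), the feedback inhibitor whose promoter is printed above, read 0.907, 0.446 and 0.271 FPKM in WT against 1.53, 0.839 and 0.776 FPKM in KO libraries. WT replicate 1 lay above KO replicates 7 and 8, so the genotypes overlapped. The log2 fold change of 0.91 had a standard error of 0.44 (adjusted p = 0.236), and ran from 0.57 without WT replicate 8 to 1.29 without WT replicate 1. It was 0.28 with the correction for GC content, and its GC content of 60.4% was the highest of the 10 genes, and the values rested on about 16 to 63 fragments per library.

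*Il34* (ENSMUSG00000031750, chromosome 8, 110741829 to 110805924, minus strand), a ligand of CSF1R, had the lowest adjusted p of the 9 genes. It read 1.52, 1.06 and 1.16 FPKM in WT against 1.85, 3.15 and 2.89 FPKM in KO libraries. All KO libraries were above all WT libraries, with KO replicate 1 nearest to them. Its mean was 2.10 times as high in KO as in WT muscle. This was a log2 difference of 1.00 with a standard error of 0.24 (adjusted p = 0.0800), and of 0.55 after the correction for GC content (adjusted p = 0.486). These values rested on about 39 to 110 fragments per library.

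*Csf1* (ENSMUSG00000014599, chromosome 3, 107741048 to 107760469, minus strand), the other ligand of CSF1R, read 4.08, 3.68 and 2.79 FPKM in WT against 4.24, 3.902 and 3.28 FPKM in KO libraries. The genotypes overlapped over most of their range, with means of 3.52 ± 0.664 FPKM in WT muscle and 3.81 ± 0.487 FPKM in KO muscle (SD, n = 3 each). Its log2 fold change was 0.12 (standard error 0.18, adjusted p = 0.697) and turned to -0.11 after the correction for GC content.

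*Csf1r* (ENSMUSG00000024621, chromosome 18, 61100598 to 61132149, plus strand), the receptor of both ligands, read 1.28, 2.85 and 3.87 FPKM in WT against 2.29, 5.50 and 3.12 FPKM in KO libraries. WT replicate 1 was the lowest and KO replicate 7 the highest library, and the other 4 were mixed. Its difference was 0.47 on the log2 scale (standard error 0.44, adjusted p = 0.516), and it was 0.03 without WT replicate 1, 0.14 without KO replicate 7, 0.75 without KO replicate 1 and 0.80 without WT replicate 8.

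*Csf1r* marks macrophages, and in whole muscle a larger number of such cells and more RNA per cell cannot be told apart. Of 18 macrophage markers, 17 had a symbol of their own in the table and 14 were tested. The log2 fold change was above 0 for 14 of these 14, with 0 called, and 1 higher and 0 lower at an unadjusted p under 0.05. The median of the 14 was 0.53, or 0.48 after the correction for GC content. Among all tested genes 51% were above 0 and 15.3% were higher by unadjusted p. Their summed level was 27.9 to 57.8 FPKM in the WT and 41.4 to 88.1 FPKM in the KO libraries, lowest in WT replicate 1 and highest in KO replicate 7, as for *Csf1r*. None of the 17 was listed at 0 in all libraries, and the list was led by *Lyz2*, the lysozyme of myeloid cells, and the complement gene *C1qb*. *Lyz2*, with means of 18.9 FPKM in WT and 22.7 FPKM in KO muscle, was the largest part of the sum. A ratio to the sum is therefore not a level per macrophage. With 0.1 FPKM added to each level, the log2 ratio of *Csf1r* to the summed markers was -4.08 ± 0.245 (SD, n = 3) in WT and -4.08 ± 0.0847 (SD, n = 3) in KO libraries, with a difference of 0.0022 (exact permutation test, two-sided, p = 1.0).

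*Il1r1* (ENSMUSG00000026072, chromosome 1, 40225080 to 40317257, plus strand), the signalling receptor of IL-1, had the largest log2 fold change of the 9 genes in size and the largest spread among the WT libraries on that scale. It read 2.08, 6.65 and 7.14 FPKM in WT against 2.47, 1.86 and 1.73 FPKM in KO libraries. WT replicate 1 lay within the KO range, while WT replicates 7 and 8 lay well above every KO library. Its log2 fold change was -1.18 (standard error 0.44, adjusted p = 0.156), smaller in size than the WT range of 1.73 on the log2 scale. It was -1.74 without WT replicate 1 (adjusted p = 0.0887) and -0.98 after the correction for GC content (adjusted p = 0.483).

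Fibroblasts are among the cells of muscle that express *Il1r1*. Markers of fibroblasts and fibro-adipogenic progenitors summed to 823 to 912 FPKM in WT and 888 to 1160 FPKM in KO libraries, with 11 of 11 tested, 3 higher and 0 lower at an unadjusted p under 0.05, a median log2 fold change of 0.07 (0.17 after the correction for GC content) and none at 0 throughout. They were led by the matrix proteoglycan *Dcn* and by *Gsn*, which encodes gelsolin, and this pair made up most of the sum. *Dcn* had means of 400 FPKM in WT and 358 FPKM in KO muscle (log2 fold change -0.15, or 0.21 after the correction). *Gsn* had means of 292 and 456 FPKM (0.65, or 0.24 after it). A ratio to the sum therefore follows this pair and is not a level per fibroblast. The log2 ratio of *Il1r1* to the summed list, taken in the same way, was -7.50 ± 1.04 (SD, n = 3) in WT and -8.90 ± 0.321 (SD, n = 3) in KO libraries. The genotypes overlapped in this ratio as well, since WT replicate 1 was at -8.71 and KO replicate 1 at -8.57 (exact permutation test, two-sided, p = 0.2, adjusted p = 0.267 over the 4 ratios tested).

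*Tnfrsf1a* (ENSMUSG00000030341, chromosome 6, 125349362 to 125362484, plus strand), TNF receptor 1, read 5.64, 6.49 and 6.37 FPKM in WT against 7.38, 9.50 and 7.48 FPKM in KO libraries. The genotypes did not overlap, and KO replicate 7 stood above the other KO libraries. The log2 fold change was 0.39 (standard error 0.14, adjusted p = 0.147). After the correction for GC content it was -0.0066 (standard error 0.11, adjusted p = 0.987), so that the direction was lost.

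The 7 tested genes with a log2 fold change above 0 had GC contents of 51.1% to 60.4%, and the other two, *Il6st* and *Il1r1*, had 48.5% and 45.2%. The median of all tested genes was 50.1%, so every gene above 0 lay on the GC-rich side of it. The correction left -0.98 of -1.18 for *Il1r1*, 0.83 of 0.89 for *Il6ra* and 0.32 of 0.46 for *Stat3*, and 0.55 of 1.00 for *Il34*, 0.28 of 0.91 for *Socs3* and 0.23 of 0.47 for *Csf1r*.

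**Figure D2:**
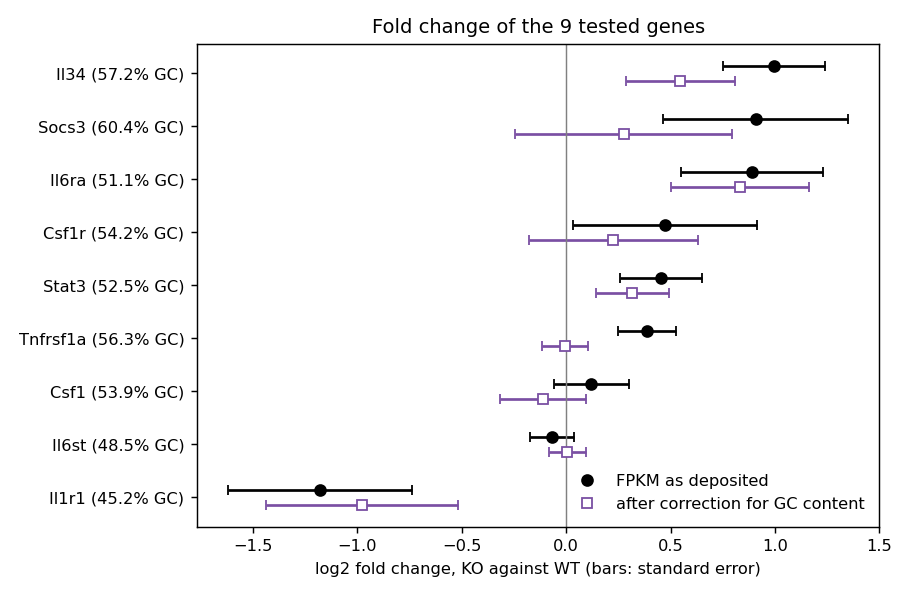
Log2 fold change of the 9 tested genes, KO against WT, with the standard error as bars, from FPKM as deposited (black circles) and after correction of each library for GC content (open purple squares). *Il34* goes from 1.00 to 0.55, *Tnfrsf1a* from 0.39 to -0.0066, and *Il6ra* from 0.89 to 0.83.

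The order of the levels over all 6 libraries was *Il6st* (mean 31.7 FPKM), *Stat3* (13.7), *Tnfrsf1a* (7.14), *Csf1* (3.66), *Il1r1* (3.65), *Csf1r* (3.15), *Il34* (1.94), *Il6ra* (1.00), *Socs3* (0.795) and *Il6* (0.0975). The neighbours at the top, from *Il6st* to *Csf1*, kept this order in 6 of 6 libraries, as did *Il34* over *Il6ra* and *Socs3* over *Il6*. The middle of the order was not separated beyond the spread, since *Csf1* exceeded *Il1r1* in 4 of 6 libraries, all 3 KO libraries but 1 of the WT libraries. *Il1r1* exceeded *Csf1r* in 3 of 3 WT and 1 of 3 KO libraries. *Il6ra* and *Socs3* were likewise not separated, with *Il6ra* higher in 4 of 6.

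Ratios within a library were taken with 0.1 FPKM added to each level, which raises the ratio of a low gene to a higher one. They were not corrected for GC content, which was 57.2% for *Il34* and 53.9% for *Csf1*, and 51.1% for *Il6ra* and 48.5% for *Il6st*. So taken, the ratio of the ligands, *Il34* over *Csf1*, was 0.387, 0.308 and 0.437 in WT against 0.449, 0.811 and 0.885 in KO libraries. KO replicate 1 was next to the WT libraries, with KO replicates 7 and 8 well above them. The log2 ratio differed by 0.88 between the genotypes, with no overlap (exact permutation test, two-sided, p = 0.1, adjusted p = 0.2). In the same way, the ratio of the receptor chains, *Il6ra* over *Il6st*, was 0.0198, 0.0220 and 0.0278 in WT against 0.0281, 0.0691 and 0.0455 in KO libraries. It differed by 0.96 on the log2 scale, again with KO replicate 1 next to the highest WT library (exact permutation test, two-sided, p = 0.1, adjusted p = 0.2), and the level of *Il6st* was above that of *Il6ra* in every library. With 1 FPKM added in place of 0.1, the differences were 0.58 for the ligands (exact permutation p = 0.2) and 0.55 for the chains (exact permutation p = 0.1).

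**Figure D3:**
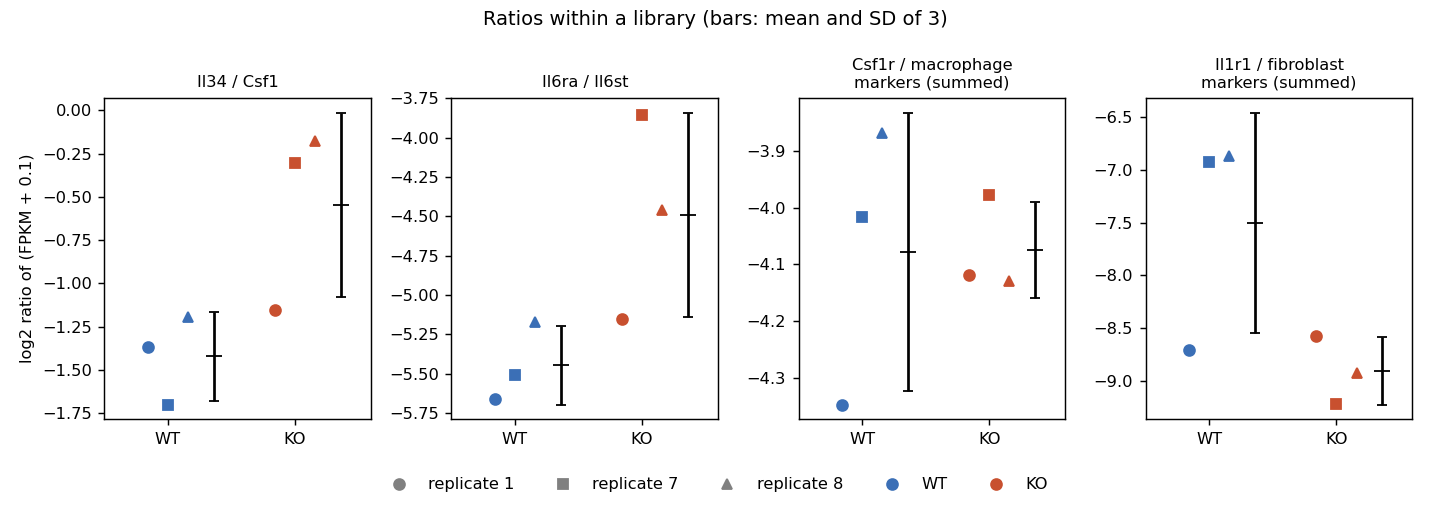
Log2 ratio of FPKM, with 0.1 FPKM added to each level, within each library for the ligand pair, the IL-6 receptor chains, *Csf1r* to summed macrophage markers and *Il1r1* to summed fibroblast markers, with the mean and SD of 3 libraries as black bars and a separate axis for each panel. The ligand and receptor chain ratios do not overlap between the genotypes, with differences of 0.88 and 0.96, and the *Csf1r* ratio differs by 0.0022.

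Other genes of these pathways were looked at through 7 lists that hold none of the 10 genes, and 0 of their tested genes were called at an adjusted p under 0.05. Their counts by unadjusted p stand against 15.3% higher and 10.9% lower among all tested genes. Genotypes without overlap stand against 18.3% of all tested genes with KO above WT and 16.2% with KO below. Most genes named from the lists were picked by low p, which favours a lack of overlap. In the IL-1 family list, 5 of 13 genes were tested and 0 had an unadjusted p under 0.05, with a median log2 fold change of 0.02, or 0.19 after the correction for GC content. *Il1rap*, the co-receptor of *Il1r1*, was at 0.554 to 1.09 FPKM in WT and 0.521 to 0.644 FPKM in KO libraries, with a log2 fold change of -0.40, or -0.13 after the correction for GC content. *Il33*, an alarmin of stromal cells, had one of -0.08, which turned to 0.19 with the correction. The inhibitory receptor gene *Sigirr* and the IL-18 binding protein gene *Il18bp* had log2 fold changes of 0.32 and 0.27 (adjusted p = 0.666 and 0.545), and after the correction that of *Sigirr* turned to -0.11 and that of *Il18bp* was 0.26. The ligands themselves, named for their role, were low, with *Il1a* at 0.0764 FPKM or less and *Il1b* at 0.121 FPKM or less in every library, each listed at 0 in at least 1.

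In the relay from the IL-1 and TNF receptors to NF-kB, 28 of 30 genes were tested, of which 8 were higher and 4 lower by unadjusted p, with a median log2 fold change of 0.13, or 0.07 after the correction for GC content. *Tab1*, a partner of the kinase TAK1, was at 2.88 ± 0.591 FPKM in WT muscle and 5.22 ± 0.439 FPKM in KO muscle (SD, n = 3 each). Its log2 fold change was 0.85 (adjusted p = 0.0700), and 0.34 after the correction for GC content. *Irak2*, a kinase of the IL-1 receptor complex, had a log2 fold change of 0.62 (adjusted p = 0.0950), and the ubiquitin ligase gene *Traf6* and the adaptor gene *Tab3* had ones of -0.40 and -0.52 (adjusted p = 0.144 and 0.146). With the correction these were 0.35 for *Irak2*, -0.26 for *Traf6* and -0.29 for *Tab3*. The libraries of the genotypes did not overlap for any of these 4 genes, which were named for their low p. Over the 28 tested genes of the list, KO lay above WT for 10 and below for 5.

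Among 16 genes of TNF ligands and receptors, 7 were tested, with 1 higher and 0 lower at an unadjusted p under 0.05 and a median log2 fold change of 0.19, which turned to -0.09 after the correction for GC content. *Ltbr*, the lymphotoxin beta receptor, read 3.73, 4.36 and 4.92 FPKM in WT against 7.83, 8.53 and 7.98 FPKM in KO libraries. The KO libraries lay close together above all WT libraries, at a log2 difference of 0.90 with a standard error of 0.13 (adjusted p = 0.0600), or 0.30 after the correction for GC content. *Fas*, a death receptor, had a log2 fold change of 0.39, and the death ligand gene *Tnfsf10* and its receptor gene *Tnfrsf10b* had ones of -0.41 and -0.11 (adjusted p = 0.248, 0.406 and 0.765). With the correction these were 0.64 for *Fas*, -0.17 for *Tnfsf10* and -0.09 for *Tnfrsf10b*. *Tnf*, named as the ligand of *Tnfrsf1a*, was at 0.102 FPKM or less in every library.

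In the IL-6 family list, 9 of 14 genes were tested, with 1 higher and 2 lower at an unadjusted p under 0.05 and a median log2 fold change of -0.13, or -0.09 after the correction for GC content. *Cntfr*, the receptor chain of ciliary neurotrophic factor, was at 1.86 ± 0.255 FPKM in WT muscle and 3.14 ± 0.474 FPKM in KO muscle (SD, n = 3 each), a difference of 0.72 on the log2 scale (adjusted p = 0.0785), and 0.15 after the correction for GC content. The lower pair were the membrane proteases *Adam10* and *Adam17*, which release the outer domains of receptors such as the IL-6 receptor. *Adam10* had a log2 fold change of -0.33 and *Adam17* one of -0.29 (adjusted p = 0.140 and 0.181), without overlap of the genotypes, and these were -0.09 and -0.10 after the correction for GC content.

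Of the Janus kinases, STATs and their inhibitors, 23 of 25 genes were tested, with 1 higher and 2 lower at an unadjusted p under 0.05 and a median log2 fold change of 0.02, which turned to -0.04 after the correction for GC content. The higher gene was *Tyk2*, a Janus kinase that can bind gp130, and differed by 0.57 on the log2 scale (adjusted p = 0.130). The lower genes were *Socs4*, of the same family as *Socs3*, and *Pias2*, a SUMO ligase, with log2 fold changes of -0.60 and -0.39 (adjusted p = 0.106 and 0.145). *Pias4*, of the same SUMO ligase family, had a log2 fold change of 0.70 (adjusted p = 0.200), and after the correction for GC content these 4 values lay between -0.22 and 0.20.

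Genes known to respond to STAT3 numbered 26, of which 23 were tested. The log2 fold change was above 0 for 18 of them, 10 were higher and 0 lower at an unadjusted p under 0.05, and their median was 0.48, or 0.34 after the correction for GC content. *Junb*, a transcription factor of the AP-1 family, read 0.584, 0.382 and 0.448 FPKM in WT against 1.17, 1.40 and 2.63 FPKM in KO libraries, a difference of 1.62 on the log2 scale (adjusted p = 0.0716), or 0.88 after the correction for GC content. *Mt2*, a metallothionein, was at 1.81 to 2.51 FPKM in WT libraries, against 3.97, 13.9 and 4.65 FPKM in KO libraries, a difference of 1.54 on the log2 scale (adjusted p = 0.0983), or 1.31 with the correction. Both had KO libraries above all WT libraries, while the kinase gene *Pim1* and the survival gene *Mcl1* overlapped, with log2 fold changes of -0.26 and -0.10 (adjusted p = 0.736 and 0.679) that were -0.52 and -0.17 with the correction.

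Many of these response genes also answer to other stimuli. In a list of 14 immediate early genes, which rise within minutes of handling or activity, 11 were tested, with a log2 fold change above 0 for 11 of 11, 3 higher and 0 lower at an unadjusted p under 0.05 and a median of 0.66, or 0.40 after the correction for GC content. Their summed level was 76.7 to 151 FPKM in WT and 161 to 315 FPKM in KO libraries. The nuclear receptor gene *Nr4a1* and *Ier2* had log2 fold changes of 1.53 and 1.06 (adjusted p = 0.0708 and 0.104), or 1.15 and 0.40 with the correction. The part of these genes in the levels of *Socs3* and *Junb* was not tested.

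In the relay of CSF1R and the myeloid factors, 14 of 23 genes were tested, with 1 higher and 1 lower at an unadjusted p under 0.05 and a median log2 fold change of 0.05, which turned to -0.03 after the correction for GC content. *Inpp5d*, the lipid phosphatase SHIP1 of blood cells, read 0.336, 0.387 and 0.628 FPKM in WT against 1.12, 1.02 and 0.919 FPKM in KO libraries. The KO libraries lay above the WT libraries, at a difference of 1.06 on the log2 scale (adjusted p = 0.101), or 0.89 after the correction for GC content. *Sos1*, which activates Ras behind many receptors, had a log2 fold change of -0.44 (adjusted p = 0.102) and *Mitf*, a transcription factor, one of -0.31 (adjusted p = 0.241), and these were -0.16 and -0.21 with the correction.

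**Figure D4:**
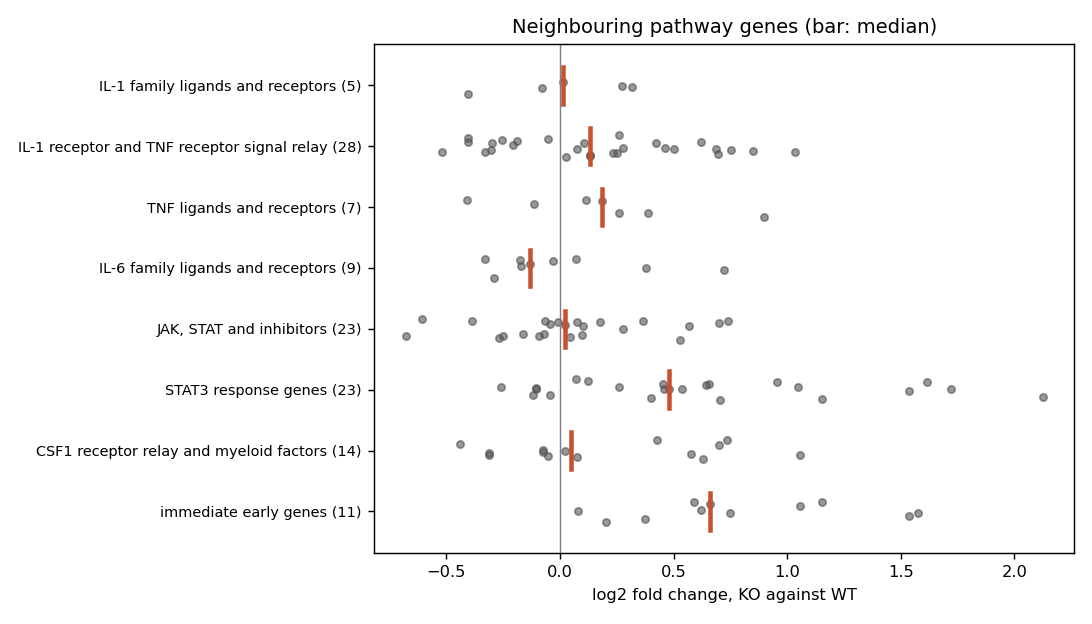
Log2 fold change, KO against WT, of each tested gene (grey points, spread vertically only to be seen) in the 7 pathway lists and the immediate early genes, with the number tested in brackets and the median as a red bar. The medians lie between -0.13 and 0.19 for 6 of the pathway lists and at 0.48 and 0.66 for the STAT3 response and immediate early genes.

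The 4 genes of the 10 with the largest range between libraries were *Socs3*, *Csf1r*, *Il1r1* and *Il6ra*. For each, the 3 nearest of 10674 genes (average level of 1 FPKM or more) were found by the root mean square difference of log2 levels centred on their mean, over 6 libraries. The genes nearest to *Il6ra* were *Pkn3*, a protein kinase (0.075), *Laptm5*, a lysosomal membrane protein of leukocytes (0.090), and *Por*, the electron donor of cytochrome P450 enzymes (0.11). Those nearest to *Csf1r* were the collagen gene *Col5a3* (0.14), the proteasome assembly gene *Psmg3* (0.15) and *Cd163*, a scavenger receptor of macrophages (0.16).

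*Socs3* lay nearest to *Clec11a*, a secreted growth factor (0.17), *Ctgf*, a matricellular protein (0.18), and *Mfap2*, a microfibril protein (0.19). *Ctgf* read 15.2, 5.98 and 4.42 FPKM in WT against 17.0, 11.3 and 11.9 FPKM in KO libraries, so that replicate 1 was the highest of each genotype, as it was for *Socs3*. *Il1r1* had no neighbour as close, the nearest being the melanocortin receptor *Mc5r* (0.33), *Dennd2c* (0.33) and *Pla2g7*, which encodes an enzyme that inactivates platelet-activating factor (0.34). *Pla2g7* read 17.2, 36.1 and 39.5 FPKM in WT against 20.1, 12.3 and 18.9 FPKM in KO libraries, again with WT replicate 1 at the level of the KO libraries. WT replicate 1 was the highest or lowest WT library for 9 of the 9 tested genes (78.8% of all tested genes), and KO replicate 1 the highest or lowest KO library for 9 of 9 (68.8%).

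**Figure D5:**
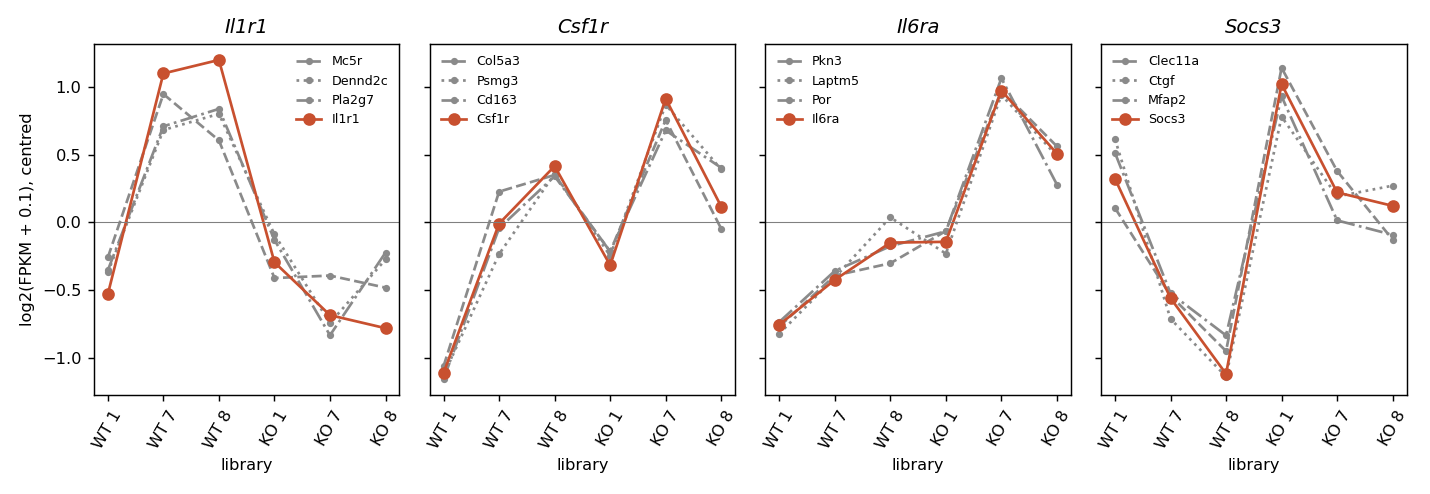
Log2(FPKM + 0.1), centred on the mean of the 6 libraries, for *Il1r1*, *Csf1r*, *Il6ra* and *Socs3* (red) and the 3 genes nearest to each (grey), with lines that join the libraries only to show each profile. *Il1r1* is high in WT replicates 7 and 8 alone, and *Csf1r* is lowest in WT replicate 1 and highest in KO replicate 7.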

How the data were processed

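Total RNA of GAS muscle was made into 1 library per mouse with a stranded mRNA kit and sequenced. The authors mapped reads to GRCm38 with TopHat, quantified genes with Cufflinks and deposited FPKM values. Versions and annotation release are not given in the sources used here. Replicates are separate mice, and among 14983 genes above 0 throughout, libraries had at most 1 value in common.

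The test was limma (3.58.1, under R 4.3.3) with its variance trend. It used log2(FPKM + 0.1), a scale that understates the fold change of low genes, and left out genes averaging under 0.5 FPKM. The calculation was tested on simulated data. Single values had exact permutation tests. Coordinates, GC content and length came from GENCODE vM21 (32935 of 37979 identifiers). For GC content, the deviations of each library from the gene means were fitted with a loess curve of span 0.3. Depth came from genes with 1 transcript of 1500 to 6000 bases, for which 90.5% to 94.7% of low values fell within 0.15 of a whole fragment after 150 bases were taken off each transcript. Depth in fragments limits low values, and no interval was computed from it.

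Named genes were the 10 genes, *Kcnab2*, from each pathway or handling list the 2 tested genes with the lowest p in each direction and every called gene, from each marker list the 2 with the highest mean, and the 3 nearest genes to the 4 with the widest range. Genes that share a symbol were left out (3685 entries), and 2 genes that the rule names are not reported here. *Il1a*, *Il1b* and *Tnf* fall outside the rule. They, like the statements on single members of other lists, were chosen after values were seen. The 10 genes and the 18 lists were chosen with earlier results of these data known. *Osmr* and *Tnfrsf12a* are each in 2 lists. The time of day of sampling, the strain and any batch are not given in the sources used here. Alternatives covered pseudocount, filter, scaling, variance model, weights, replicate block, GC content, length and each library left out. Figures were drawn with matplotlib 3.10.9. The histology, quantitative PCR and old mice were not analysed here.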

Additional observations from a re-analysis of the deposited data

How the results depend on the processing

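Of 170 fold changes of the 9 tested genes recomputed under 19 alternatives (*Socs3* was under the filter of 1 FPKM), 158 kept their direction and their side of the threshold, 4 passed it, all with limma's array weights, and 8 changed sign. The weights, which gave WT replicate 7 a weight of 6.12 and the other libraries 0.355 to 1.97, called 4 of the 10 genes (*Il1r1*, *Il34*, *Il6ra* and *Stat3*), 33 pathway genes, 28 marker and immediate early genes and 3147 genes in all, where the analysis as reported called 0, 0, 0 and 40. With a filter of 1 FPKM, 1 pathway gene (*Ltbr*) was called. The number of genes called in all was 11 with a pseudocount of 1, 20 without a filter, 1 without genes listed at 0 in any library, 18 after quantile normalization, 19 without the variance trend, 14 with the correction for GC content and 12 with that correction and the replicate block. Leaving out single libraries gave 11 to 38, the highest without WT replicate 8. The signs changed for *Il6st* (0.0067) and *Tnfrsf1a* (-0.0066) with the GC correction, with or without the block, and for *Csf1* with the GC correction (-0.11, with or without the block), with array weights (-0.016) and without WT replicate 8 (-0.035, in a range up to 0.23 with other libraries left out). The log2 difference of *Csf1r* to macrophage markers depended on the pseudocount. It was -0.11 with a pseudocount of 1, where the exact permutation p was 0.1, the smallest that 3 mice against 3 allow. It was -0.0015 after quantile normalization and -0.13 to 0.11 with each library left out. The 10 alternatives for the ratios did not include the correction for GC content. The 3 ratios other than that of *Csf1r* kept their direction under these alternatives. The pair without overlap shrank with a pseudocount of 1 (*Il34* to *Csf1* 0.58, exact permutation p = 0.2, and *Il6ra* to *Il6st* 0.55, exact permutation p = 0.1). After quantile normalization this pair was at 0.86 and 0.85, each with an exact permutation p of 0.2. The replicate block gave 13 called genes and 0 of the 10. Libraries with the same number did not deviate together, with correlations of -0.025, -0.080 and 0.034 for numbers 1, 7 and 8, and of the KO libraries replicate 8 alone correlated best with its own number. The cause of each change was not tested. With each library left out the log2 fold change was 0.85 to 1.22 for *Il34*, 0.63 to 1.18 for *Il6ra* and -1.74 to -0.87 for *Il1r1*. *Il6* rested on too few fragments for a comparison.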

Other observations

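Markers of other cells were counted against all tested genes, of which 15.3% were higher and 10.9% lower at an unadjusted p under 0.05. Of 8 neutrophil markers, 1 was tested, *S100a8* (log2 fold change -0.24, or -0.015 after the correction for GC content), the list summed to 0.513 to 2.28 FPKM in WT and 0.470 to 1.92 FPKM in KO libraries, and *Ly6g* and *Elane* were listed at 0 throughout. Of 11 lymphocyte markers, 1 was tested, *Cd3e* (log2 fold change -0.29), with sums of 0.660 to 1.75 FPKM in WT and 0.800 to 1.40 FPKM in KO libraries. Endothelial markers, led by *Pecam1* and *Esam*, summed to 63.7 to 72.3 FPKM in WT and 70.5 to 87.2 FPKM in KO libraries, with 3 of 10 higher and 1 lower at an unadjusted p under 0.05.

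Adipocyte markers, led by *Fabp4* and *Cfd*, had a median log2 fold change of 1.88 (1.63 after the correction for GC content), with 4 of 6 higher and 0 lower at an unadjusted p under 0.05. They summed to 444, 234 and 236 FPKM in WT and 302, 618 and 339 FPKM in KO libraries. In this sum KO replicate 7 stood far above the other KO libraries, which lay below WT replicate 1. *Fabp4* made up most of the sum, with 409 FPKM in WT replicate 1, and overlapped between the genotypes. The sum therefore mainly follows *Fabp4*. For 3 of the 6 markers, *Cfd* among them, each KO value exceeded each WT value, and the others overlapped. *Cfd* read 17.8, 3.92 and 10.6 FPKM in WT against 27.9, 89.0 and 24.6 FPKM in KO libraries. Tendon markers, led by *Fmod* and *Thbs4*, had a median of 0.76 (0.62 after the correction for GC content) with 2 of 7 higher. Erythroid markers, led by *Hba-a2* and *Hba-a1*, had one of 1.02 (0.57 after the correction for GC content) with 2 of 3 higher. Satellite cell markers, with *Cdh15* and *Vcam1* the highest, had a median of 0.42 (0.28 with the correction) with 1 of 3 higher, and muscle fiber markers one of 0.59 (0.36) with 5 of 13 higher. By adjusted p (limma) 0 of these marker genes were called, and their part in the levels of the receptor genes was not tested.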
